A study of Drosophila melanogaster with 2 samples.

Results

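The general transcription factors are the proteins that place RNA polymerase II at a promoter, and the binding of the protein ssp (sunspot) at the genes that encode them is described here. The genes were taken by name from the Ensembl annotation of the fly genome: every protein-coding gene whose symbol begins with Taf and a digit or with TfII, together with Tbp, Trf and Trf2. That gave 27 of 13986 protein-coding genes, made up of 15 TAF genes, 3 genes of the TBP family, 3 of TFIIA, 1 of TFIIB, 2 each of TFIIE and TFIIF, and 1 of TFIIS. TAF1B and TAF1C-like, which are spelled in capitals, fell outside the rule.

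The data were peak lists from chromatin immunoprecipitation and sequencing of whole Drosophila melanogaster embryos aged 0 to 24 h. The flies were transgenic and expressed ssp fused to eGFP, and an antibody against GFP was used after the chromatin had been sonicated to 200 to 800 bp. The 2 biological replicates form a single group, the embryos carrying ssp-eGFP, and the labels give no other genotype, treatment or stage. All tissues and stages of embryogenesis were pooled, and the labels do not say what drives the fusion. The control that the labels refer to was not analysed here. The combined list of both replicates held 4948 peaks, with 3606 in the list of replicate 1 and 3437 in that of replicate 2, and sequencing depth is unknown, as a peak list carries no counts. Peak signal is the value that the authors' peak caller gave to each peak, and it ran from 2.02 to 6042 with a median of 133 in the combined list.

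In the assembly of a pre-initiation complex, TFIID binds the core promoter through TBP and its associated factors, the TAFs. TFIIA and TFIIB join it, polymerase arrives with TFIIF, and TFIIE brings in TFIIH, which opens the DNA. TFIIS acts later, when it helps a stalled polymerase to cut back its transcript and resume. In flies the TBP relatives Trf and Trf2 serve other classes of promoter. The protein ssp has been described in fly larvae as a regulator of cell cycle genes under the control of Wingless signalling.

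Of the 27 genes, 10 (37%) had a combined peak with its summit within 500 bp of a transcription start site (TSS), against 2984 of 13986 protein-coding genes (21.3%). The 10 were Taf2, Taf3, Taf4, Taf5, Taf7, Taf8, Taf13, TfIIA-L, TfIIB and TfIIS. Neighbouring genes can share a peak, and 7 members were the gene with the nearest TSS for at least 1 of their peaks, against 15.8% of all protein-coding genes. At TfIIA-L this held only for a weaker entry of signal 32.5. Counting the strongest peak alone, 6 members were the nearest gene. The median signal of the strongest peak per gene was 222 at the 10 members (range 91.7 to 516) and 189 at all 2984 genes, but among peaks above the median signal it was 251 at members and 295 at all genes. None of the 10 reached the top decile of those 2984 genes, which began at a signal of 983.

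**Figure D1:**
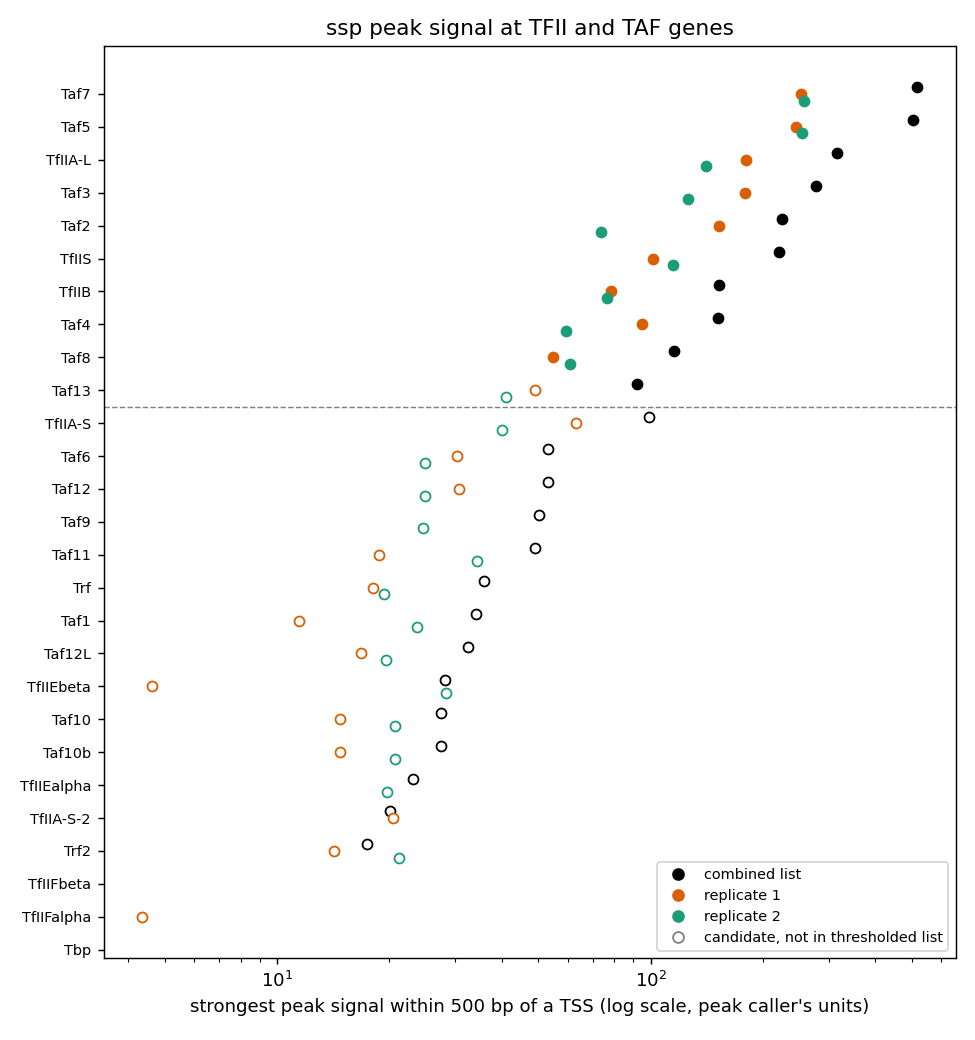
Strongest peak signal within 500 bp of a TSS for each of the 27 genes (log scale), in the combined list (black), replicate 1 (orange) and replicate 2 (green). Filled points are peaks of the thresholded lists and open points are candidates that are not in them. The 10 genes above the dashed line have a combined peak, with Taf7 highest at 516 and Taf13 lowest at 91.7, and TfIIA-S below the line has a candidate of 99.0.

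The bases under 6 of the strongest member summits are shown so that the words searched for can be read in place. Each reads 5′ to 3′ on the strand of the gene, within 60 bp of the summit and outside annotated exons, and comes from the RefSeq genome sequence, which has the coordinates of dm6. The capitals mark CGATA on either strand, which is part of TATCGATA, the DNA replication-related element common at housekeeping promoters of the fly. The Taf7 window is chr3R:7907498-7907561 on the plus strand and is an intron of the longer transcript, with the summit at base 29. The TfIIA-L window is chr3R:27253200-27253320 on the plus strand, that of Taf3 is chr4:466829-466926 on the minus strand, and that of TfIIS is chr2L:15060758-15060863 on the minus strand. The TfIIB window is chr2L:10430932-10431052 on the plus strand and that of Taf4 is chr3L:16113525-16113645 on the plus strand. In these 5 the summit is at base 61. The Taf2 window lay within the 5′ UTR of a neighbour and is not shown, and the rule for printing, by chromosome, left out that of Taf5.
Taf7: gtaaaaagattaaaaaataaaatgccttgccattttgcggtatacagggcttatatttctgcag
TfIIA-L: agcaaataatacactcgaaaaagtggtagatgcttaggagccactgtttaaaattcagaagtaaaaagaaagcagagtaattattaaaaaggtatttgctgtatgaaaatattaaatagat
Taf3: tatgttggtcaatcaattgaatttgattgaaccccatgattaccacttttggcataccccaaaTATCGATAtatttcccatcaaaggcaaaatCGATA
TfIIS: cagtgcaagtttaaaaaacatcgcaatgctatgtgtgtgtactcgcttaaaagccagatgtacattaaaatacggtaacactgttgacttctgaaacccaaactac
TfIIB: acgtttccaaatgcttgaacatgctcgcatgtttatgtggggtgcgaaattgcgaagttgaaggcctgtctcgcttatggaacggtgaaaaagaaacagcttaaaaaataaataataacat
Taf4: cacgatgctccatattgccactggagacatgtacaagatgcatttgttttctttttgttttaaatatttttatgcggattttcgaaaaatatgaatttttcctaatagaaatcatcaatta

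Taf3 stands out in this set of 6 as the sequence with a whole TATCGATA, centred 6 bp from its summit, and with a further CGATA next to its TSS. Within 50 bp of the summit and on both strands, TATCGATA was in 1 of the 10 member peaks and in 117 of all 2338 promoter peaks (5%). The shorter CGATA, which every TATCGATA contains, was in 2 of 10, at Taf3 and Taf8, against 26.5% of promoter peaks. The TATA box word TATAAA was in 1 of 10, at Taf5, against 21.0%, and within 100 bp it was in 4 of 10, against 35.8%. With 10 windows, no difference from promoter peaks can be read from these counts.

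The other words searched on both strands were absent from the 10 windows. The core GGTCACAC of the motif 1 element had a match in 2.1% of all promoter peaks, the E-box CACGTG in 0.984%, and the E-box CAGCTG in 3.93%. The GAGA factor word GAGAG had a match in 7.36% of promoter peaks and the Zelda word CAGGTAG in 0.342%. The E2F words TTTGGCGC and TTTCCCGC had matches in 0.599% and 0.385%. GTGTGAA, a word added after the data were seen, was in 0 of the 10 member windows, in 3.89% of all promoter peaks and in 10.8% of the 500 strongest promoter peaks. Within 60 bp, the length of the windows printed above, it was in 1 of 10 member windows, in 4.49% of all promoter peaks and in 12% of the 500 strongest. The order of members and all promoter peaks thus rests on 1 member window, and no difference can be read from it. The word TATCGA, also added then, was in 2 of 10 within 50 bp, against 15.7%.

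The summits of the members were AT-rich like those of other promoters. GC content within 50 bp of the summit had a median of 32.2% at the 10 member peaks, against 33.7% at all promoter peaks (quartiles 27.7% and 42.6%). It ran from 12.9% at Taf2 and 20.8% at Taf5 to 41.6% at TfIIB and 46.5% at Taf8. Taf2, Taf5, Taf13 and Taf4 were thus below the lower quartile of promoter peaks.

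Among the 15 TAF genes, 7 had a peak, against 21.3% of all protein-coding genes. At Taf2 and Taf13 the TSS of a neighbour was nearer to the summit. Taf7 (FBgn0024909, 3R from 7907333 to 7909721), whose product binds the large scaffold subunit Taf1, had the strongest peak of all members. Its signal was 253 in replicate 1, 258 in replicate 2 and 516 in the combined list, where it ranked 513 of 4948. The replicates differed little, with a log2 ratio of replicate 2 to replicate 1 of 0.03. The peak spans 7907368 to 7907683 and its summit lies between the annotated starts of the gene, 112 bp upstream of one and 193 bp downstream of the other, in an intron of the longer transcript. The same peak lay 163 bp upstream of the TSS of EMC1, a gene of the endoplasmic reticulum membrane complex that runs the other way.

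Taf5 encodes the subunit with WD40 repeats that joins the histone-fold TAFs of TFIID. The gene (FBgn0010356) is on 2R from 10877312 to 10879673, and its signal was 246 in replicate 1, 254 in replicate 2 and 504 in the combined list, at rank 528. Its values and those of Taf7 were close in each list and above those of the other 8 members. The peak, from 10879695 to 10879952, is intergenic, 133 bp upstream of Taf5 and 168 bp upstream of Pex6, which encodes an ATPase of peroxisome import.

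Taf3, Taf2 and Taf4 formed a middle group in which replicate 1 was higher in each case. Taf3 (FBgn0026262, chromosome 4 from 459887 to 466828) encodes a histone-fold subunit that in mammals reads methylated histone H3 through its PHD finger. Its signal was 179 in replicate 1, 126 in replicate 2 and 278 in the combined list, and the summit was intergenic, 38 bp upstream of the single TSS. The peak, from 466759 to 467010, was within 500 bp of no other protein-coding gene.

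Taf2 (FBgn0011836, 3L from 9884411 to 9888683) encodes a subunit that contacts the initiator element. The peak from 9888705 to 9889120 had a signal of 152 in replicate 1, 73.5 in replicate 2 and 224 in the combined list. Its log2 ratio of replicate 2 to replicate 1, -1.05, was the lowest of the members, and 0.681% of the promoter peaks found in both lists were lower still. The summit was 230 bp upstream of Taf2 but 151 bp downstream of the TSS of the calpain protease gene CalpB, in its 5′ UTR, and in replicate 2 it lay 131 bp away from the combined summit, against 11 bp in replicate 1.

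Taf4 (FBgn0010280, 3L from 16113212 to 16121651), the partner of Taf12 in a histone-fold pair, had a signal of 94.8 in replicate 1, 59.4 in replicate 2 and 151 in the combined list. The summit of this peak, which spans 16113377 to 16113792, lies in an intron of its longer transcripts. It was 205 bp upstream of the middle one of its 3 annotated starts and 373 bp downstream of the first. A weaker entry of signal 31.2 overlapped the stronger one, with its summit 3 bp upstream of the same start.

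Taf8 and Taf13 had the lowest signals of the 10. Taf8 (FBgn0022724, X from 18101970 to 18103482), a histone-fold subunit that pairs with a TAF10 protein, had 54.6 in replicate 1, 60.9 in replicate 2 and 116 in the combined list, with the summit 25 bp upstream of its TSS. The peak spans 18101737 to 18102152, is intergenic at its summit and was within 500 bp of no other protein-coding start. Taf13 (FBgn0032847, 2L from 20093088 to 20093849), the partner of Taf11, had a combined peak of 91.7 from 20093776 to 20094191 that was absent from both replicate lists. The overlapping candidates had a signal of 49.1 in replicate 1 and 40.9 in replicate 2, with an irreproducible discovery rate (IDR), the measure by which the authors ranked candidates, of 0.129 and 0.104. In the combined ranking the IDR was 0.00178. The summit was 135 bp upstream of Taf13 and 12 bp inside nesd, a cytokinesis gene, in its 5′ UTR.

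The 8 TAF genes with no peak were Taf1, Taf6, Taf9, Taf10, Taf10b, Taf11, Taf12 and Taf12L. Each had a ranked candidate within 500 bp of its TSS in the combined ranking. The signal given for a gene without a peak is that of its strongest candidate and the IDR is the smallest of its candidates. The signals ran from 27.4 at Taf10 to 53.2 at Taf6, and the IDR from 0.165 at Taf11 to 0.773 at Taf9. These signals were below that of the weakest TAF with a peak. Peaks are listed by a threshold on the same candidates, so this is not a separate result. Taf10 and Taf10b start 45 bp apart in opposite directions, so the same candidate counts for both. Taf1, the scaffold of TFIID, had candidates of 11.4 in replicate 1 and 23.7 in replicate 2, and 34.1 in the combined ranking.

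By listed peaks, some partners in the histone-fold pairs of TFIID differed and others did not, and this was not tested. Taf4 had a peak of 151, whereas the candidate at Taf12 had a signal of 53.1 and an IDR of 0.491. Taf13 had a combined peak of 91.7, whereas the candidate at Taf11 had a signal of 49.1. The Taf13 peak was in neither replicate list, so there both partners lacked a peak, and its summit was nearer to the TSS of nesd. Taf6 and Taf9, which pair with each other, both lacked a peak, with candidates of 53.2 and 50.3. Taf3 and Taf8, whose products pair with TAF10 proteins, had peaks, and Taf10 and Taf10b did not.

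The TBP family had no peak at any of its 3 genes, against 21.3% of all protein-coding genes, a set too small to compare with that share. Tbp, which encodes the subunit that bends TATA DNA (FBgn0003687, 2R from 21686192 to 21687642), had no ranked candidate within 500 bp of its TSS in the combined ranking or in either replicate, and 13161 bp separated its TSS from the closest combined peak. Trf (FBgn0010287, 2L from 8072895 to 8073948), which in flies also serves RNA polymerase III, had candidates of 18.1 in replicate 1, 19.3 in replicate 2 and 35.7 in the combined ranking, with an IDR of 0.704. Its TSS lies 47 bp from that of the Mediator gene MED20, which runs the other way. Trf2 (FBgn0261793, X from 8409272 to 8433011), which in flies acts at ribosomal protein and other TATA-less promoters, had candidates of 14.2, 21.1 and 17.4 in replicate 1, replicate 2 and the combined ranking, and its nearest combined peak was 10328 bp from a TSS.

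TfIIA-L, which encodes the precursor of the large TFIIA subunits, had the third strongest peak of the members. The gene (FBgn0011289, 3R from 27251112 to 27256463) has 2 annotated starts, and the peak from 27253161 to 27253378 lies in an intron of the longer transcript, 170 bp upstream of the inner start and 2148 bp downstream of the outer one. Its signal was 181 in replicate 1, 141 in replicate 2 and 316 in the combined list, at rank 902. The TSS of pll, the Pelle kinase gene of the Toll pathway, was closer, with the summit 78 bp upstream of it. A weaker overlapping entry of signal 32.5 had its summit 29 bp inside TfIIA-L.

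TfIIA-S, the gene of the small TFIIA subunit (FBgn0013347, 3R from 23890388 to 23891060), was the member nearest to the threshold without a peak. Its candidate spans 23890900 to 23891315, with the summit 48 bp upstream of the TSS, and had a signal of 63.2 in replicate 1, 40.0 in replicate 2 and 99.0 in the combined ranking, above the 91.7 of Taf13. The IDR was 0.00502 in replicate 1, 0.194 in replicate 2 and 0.00274 in the combined ranking, where every thresholded peak had one at or under 0.01. It was 1 of 198 of the 5146 ranked candidates at or under that value that were not in the combined list. Per the deposited notes, 1 more file of unstated kind went into the thresholded lists, and its part in this was not tested. Counting candidates at or under the value in place of listed peaks, 11 of the 27 members had one, against 21.7% of all protein-coding genes. The paralog TfIIA-S-2, on X, had a candidate of 20.1 with an IDR of 0.885.

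TfIIB, the factor that bridges TBP and polymerase (FBgn0004915, 2L from 10431338 to 10433116), had a peak from 10430784 to 10431199 with a signal of 78.5 in replicate 1, 76.6 in replicate 2 and 153 in the combined list. Its summit lay farthest from the member's own TSS, 346 bp upstream. It was 74 bp upstream of Bug22, a gene of cilia and sperm tails that runs the other way. TfIIS (FBgn0010422, 2L from 15058919 to 15060757) had 101 in replicate 1, 115 in replicate 2 and 221 in the combined list. Its peak of 142 bp, from 15060732 to 15060873, had its summit 46 bp upstream of the TSS and was near no other protein-coding gene.

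The 2 TFIIE genes and the 2 TFIIF genes had no peak, against 21.3% of all protein-coding genes, and are too few to compare with that share. TfIIEalpha had a combined candidate of 23.1 with an IDR of 0.725, and TfIIEbeta had 28.1 with an IDR of 0.652. At TfIIFalpha the candidate list of replicate 1 held a single entry of signal 4.36, and replicate 2 and the combined ranking held none. At TfIIFbeta none of the 3 rankings held a candidate. Over the 17 members with no peak, 14 had a combined candidate, with a median signal of 33.3, against 32.5 over the 7383 protein-coding genes with a candidate and no peak. Among the genes with any candidate, 10 of 24 members had a peak, against 28.8% of all such protein-coding genes. A gene without a listed peak is not shown to be free of ssp, since depth is unknown.

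All 10 strongest peaks had their summit upstream of the nearest TSS of the member, from 25 bp at Taf8 to 346 bp at TfIIB. The median position was -134 bp, against -121 bp over the 2984 protein-coding genes, of which 89.9% had the summit upstream. With each peak given to its nearest TSS alone the order turned, to -46 bp at members and -92 bp over all genes. There TfIIA-L was counted by its weaker entry of signal 32.5, with the summit 29 bp downstream of its start. By annotation, 5 of the 10 summits were intergenic, at Taf3, Taf5, Taf8, TfIIB and TfIIS. Another 3 were in an intron of the member itself, at Taf4, Taf7 and TfIIA-L, downstream of an outer start. The other 2 were in the 5′ UTR of the neighbour, at Taf2 and Taf13. At 6 of the 10 the summit was within 500 bp of a neighbour's TSS, and the neighbours were CalpB, Pex6, EMC1, nesd, pll and Bug22. The share over all genes with a peak was 58.4%. The neighbour was the nearer gene at Taf2, Taf13, TfIIA-L and TfIIB.

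**Figure D2:**
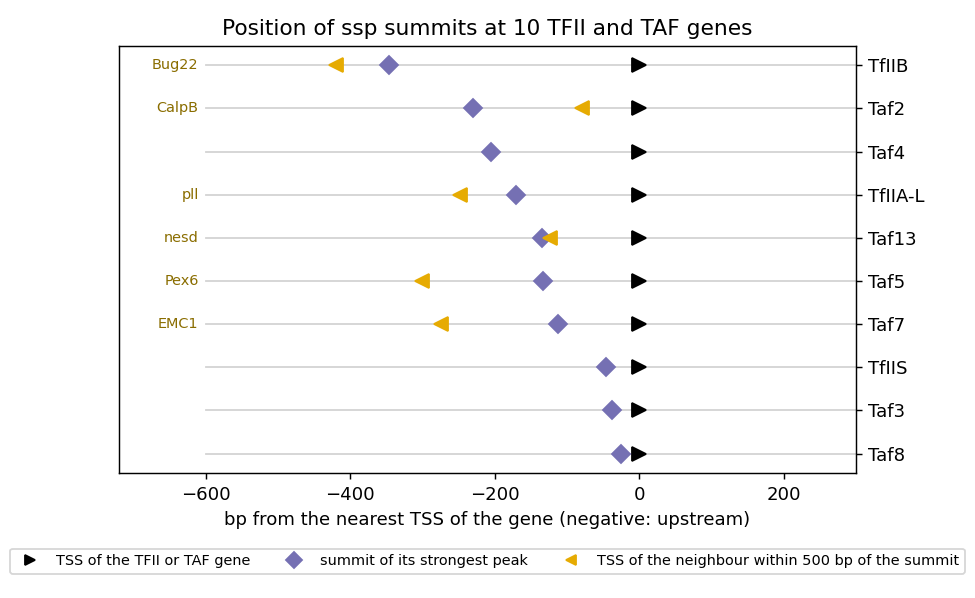
Summit of the strongest peak (diamond) relative to the nearest TSS of the TFII or TAF gene (black arrowhead, at 0), in bp, with the TSS of the neighbour within 500 bp of the summit (yellow arrowhead, named at the left). Each row is a gene; all 10 summits lie upstream, from 25 bp at Taf8 to 346 bp at TfIIB, and at Taf2 and Taf13 the summit also lies past the start of the neighbour.

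Head-to-head here means a protein-coding TSS on the other strand within 1000 bp upstream of any start of the gene. Every member with a peak had such a start, but the count rests on this wide limit. The distance was 586 bp at Taf4, where any of 3 starts could count, 656 bp at Taf8, 669 bp at Taf3 and 899 bp at TfIIS. The summits at these genes were within 500 bp of no neighbour's TSS. Of the 27 members, 18 had a protein-coding TSS on the other strand within 1000 bp upstream of any of their starts (66.7%, against 36.2% of all protein-coding genes), and 10 of these 18 had a peak (55.6%). None of the 9 other members had a peak: Taf1, Taf9, Taf12L, Tbp, TfIIA-S, TfIIEalpha, TfIIEbeta, TfIIFbeta and Trf2. Of these, TfIIA-S had a candidate under the IDR threshold, at 0.00274, that was not in the combined list. Counted by candidates, the share of these 9 would therefore not be 0. Over all protein-coding genes the shares with a peak were 1927 of 5056 with a head-to-head start (38.1%) and 1057 of 8930 without (11.8%). This arrangement was examined after the peaks had been seen, and the difference was not tested. The 8 members with a head-to-head start and no peak were Taf6, Taf10, Taf10b, Taf11, Taf12, TfIIA-S-2, TfIIFalpha and Trf.

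**Figure D3:**
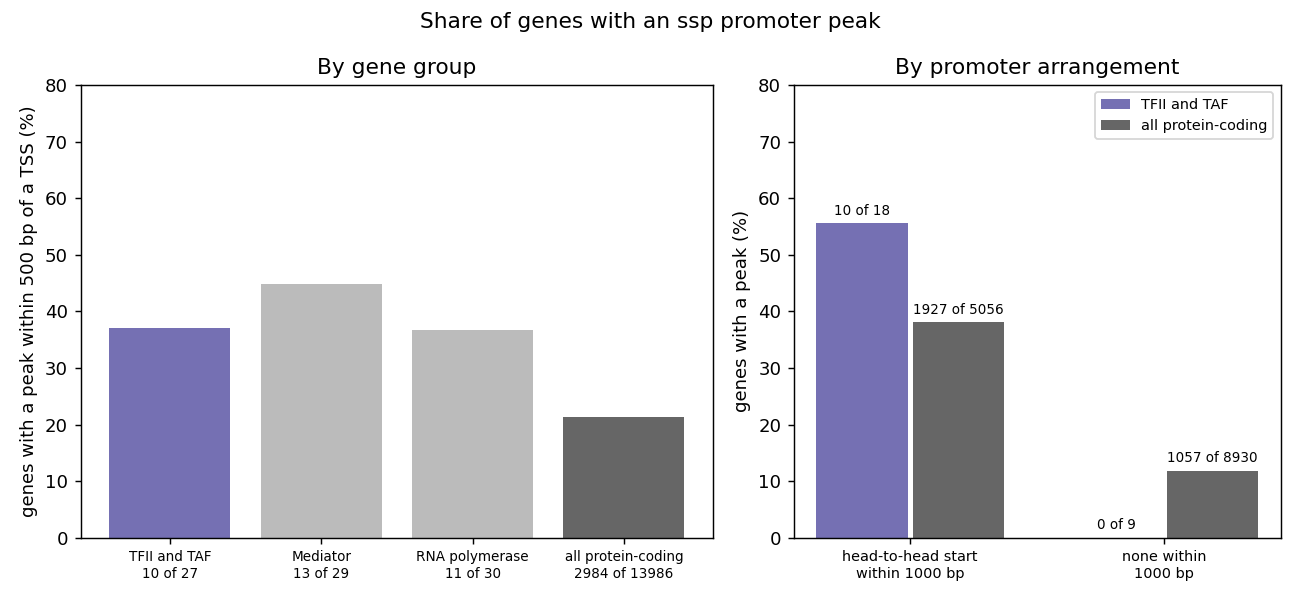
Percentage of genes with a combined peak within 500 bp of a TSS, with counts. On the left are the TFII and TAF genes (10 of 27), the Mediator genes (13 of 29), the RNA polymerase genes (11 of 30) and all protein-coding genes (2984 of 13986). On the right genes are divided by whether a start on the other strand lies within 1000 bp upstream, and 10 of 18 members with such a start and 0 of 9 without had a peak. TfIIA-S, among those 9, had a candidate under the IDR threshold that is not a listed peak.

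Both replicates listed the strongest peak of 9 of the 10 members, Taf13 being the exception, against 70.5% of the 2984 genes with a peak. Across these 9 the log2 ratio of replicate 2 to replicate 1 had a median of -0.03 and an SD of 0.43, and it ran from -1.05 at Taf2 to 0.18 at TfIIS. Across the 1615 promoter peaks in both lists the median was -0.19 and the SD 0.31. Any difference in scaling between the 2 lists enters this ratio. Taf5, Taf7, TfIIB, Taf8 and TfIIS had nearly equal signals, with ratios from -0.03 to 0.18, whereas Taf2, Taf4, Taf3 and TfIIA-L were lower in replicate 2, with ratios of -1.05, -0.68, -0.51 and -0.36. The 5th and 95th percentiles of promoter peaks were -0.73 and 0.28, and Taf2 was the 1 of the 9 outside them.

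**Figure D4:**
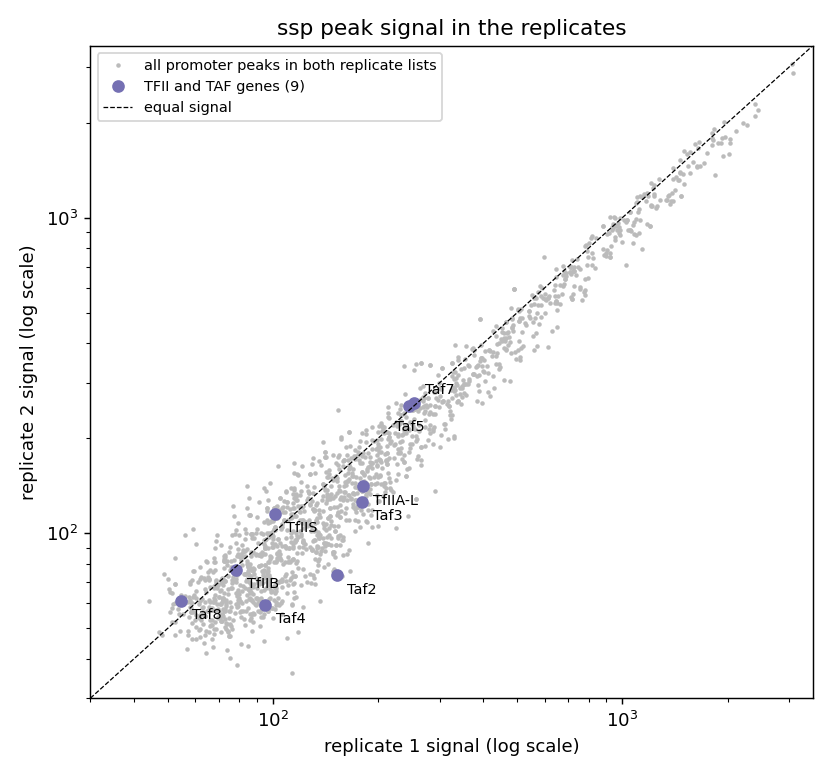
Signal in replicate 1 against signal in replicate 2 (both log scales) for the 1615 promoter peaks found in both replicate lists (grey) and for the 9 TFII and TAF genes among them (purple). The dashed line marks equal signal; Taf7 and Taf5 lie close to it, and Taf2, at 152 and 73.5, lies farthest below it.

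The Mediator and the polymerases are the other large complexes at promoters. A peak was found at 13 of 29 Mediator genes (44.8%), with a median signal of 299.5 and a highest signal of 5928 at MED21. Of 30 genes of RNA polymerase I, II and III, 11 had one (36.7%), with a median of 234 and a highest signal of 649.6 at Polr2H. Over all protein-coding genes the share was 21.3% and the median 189. The counts were 9 of 29 and 7 of 30 with each peak given to its nearest TSS alone, against 15.8%. The difference between the groups was not tested, and with 27 to 30 genes each a single gene moves a share by several percentage points.

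Other genes that act at promoters were listed with earlier results known. The lists also held the histone acetyltransferase complex SAGA and pausing and elongation factors, which are not initiation factors. Of 44 such genes, 23 (52.3%) had a peak, with a median signal of 249, against 21.3% of all protein-coding genes. With each peak given to its nearest TSS alone the count was 11 of 44, beside 7 of 27 TFII and TAF genes and 15.8% of all protein-coding genes, and the difference between the lists was not tested. In TFIIH, the helicase and kinase complex that follows TFIIE, 8 of 10 genes had a peak, against 21.3% of all protein-coding genes. By nearest TSS alone the count was 4 of 10, against 15.8%. The strongest peaks were at Tfb1 (1073 in replicate 1, 945 in replicate 2 and 2008 combined), at Ssl1 (906, 791 and 1681), and at mrn (164, 170 and 346). The Ssl1 summit was nearer to the TSS of Chro and the mrn summit to that of CG12301. The helicase gene hay and Tfb4 had none, and the peaks at CycH and Tfb5 were in neither replicate list.

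SAGA, the histone acetyltransferase complex that shares TAFs with TFIID, had a peak at 7 of 15 genes (46.7%), against 21.3% of all protein-coding genes. Nipped-A, its large recruitment subunit, had 1637 in replicate 1, 1453 in replicate 2 and 3093 combined, and the acetyltransferase gene Gcn5 had 192, 185 and 382, with the TSS of ver nearer to the summit. The testis paralogs of the TAFs listed here, can, sa, mia and nht, had a peak at 0 of 4 genes, a list too small to compare with that share. Taf12L, a further testis paralog also known as rye, was counted among the TAF genes above and had no peak. Among the regulators of TBP, NC2alpha had a peak of 434, nearer to the start of another gene, and NC2beta and Hel89B had none. TFIIIB and the snRNA activator complex had a peak at 3 of 5 genes, led by Bdp1 at 613 and Brf, the partner of Trf in polymerase III initiation, at 477. The TSS of CG6565 was nearer to the Bdp1 summit, and that of sds22 to the Brf summit. Pausing and elongation factors had one at 4 of 7, led by TH1 at 2721 and Nelf-E at 355. The TH1 peak was also within 500 bp of the TSS of mei-41, and the Nelf-E summit was nearer to that of RpL14. By nearest TSS alone the counts were 4 of 15 for SAGA, 0 of 4 for the testis paralogs and 0 of 3 for the regulators of TBP. They were 1 of 5 for TFIIIB with the snRNA activator complex and 2 of 7 for pausing and elongation factors, against 15.8% of all protein-coding genes.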

How the data were processed

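Peaks were from ChIP-seq of 2 biological replicates. Per the deposited notes, the authors ranked peaks by IDR on dm6 from the alignments and a control (which aligner and which peak caller: not given in the sources used here). Each deposited signal has no stated scaling between lists, so signals were ranked within a list. The deposited score used here is minus log10 of the global IDR. The series' ranked lists hold 16 further columns that no label ties to a replicate, and these were left out. Read depth is unknown.

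Summits were assigned to every protein-coding gene with an Ensembl release 115 TSS within 500 bp, and a gene was described by its strongest peak. Ensembl coordinates and the RefSeq sequence are of the dm6 assembly, and coordinates count from 1. Replicate overlap was 1 shared base. No test was run, since there is 1 group, so all comparisons are counts and medians. The assignment was tested on simulated data, with a single start per gene and genes far apart. That test did not cover shared peaks, the choice of nearest gene or genes with several starts. Members, lists and words were chosen with earlier results of these data known. Every member was named, with full values for the strongest 8, for Tbp, Trf and Trf2 and for peaks absent from a replicate list, and of other lists up to 3 genes each, with others named after their values were seen. Of 48 list names, 44 were used: 3 were members under another name and 1 belongs to another gene. Python 3.11.15 and pandas 2.3.3 were used.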

Additional observations from a re-analysis of the deposited data

How the results depend on the processing

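The number of members with a peak was 10 in the conservative list (20.8% of all protein-coding genes) and 10 with a window of 1000 bp (24.3%). It was 9 without replicate 1 (17.3%) and 9 without replicate 2 (18%), Taf13 being lost in both. It was 8 among peaks above the median signal (14.2%), 8 with a window of 200 bp (15.9%), 7 with each peak given to its nearest TSS alone (15.8%), and 11 with candidates at or under the IDR threshold (21.7%), an alternative chosen after seeing the data.

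The median signal of member peaks was 115 to 152 when either replicate was left out, against 110.2 to 122 over all protein-coding genes with a peak. It was 249 at 200 bp, against 190.4, and 270.1 at 1000 bp, against 184. Among the stronger peaks it was 251, against 295, so there the members were lower than all genes, the opposite of 222 against 189.

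The median position was -151.5 bp among the stronger peaks, against -124.5 bp over all genes, -187.5 bp at 1000 bp, against -129 bp, and -129 bp without replicate 2, against -119 bp. The order turned, with members nearer to the TSS, without replicate 1 (-115 against -125 bp), at 200 bp (-79 against -93 bp) and with the nearest TSS alone (-46 against -92 bp).

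The share of member peaks in both replicate lists was 100% among the stronger peaks and with the nearest TSS alone, and 80% with 50% reciprocal overlap or summits within 100 bp. The share over all genes was not taken at these settings, so these values cannot be set against it. With the nearest TSS alone, TfIIA-L was counted by its weaker entry. The summit of that entry lay 188 bp and 192 bp from those of the overlapping peaks in replicates 1 and 2. The count over the other gene lists was 11 of 44 with the nearest TSS alone. Within 100 bp of the summit, CGATA was in 3 of 10 member peaks (44.4% of promoter peaks) and TATAAA in 4 of 10 (35.8%). Members were above promoter peaks for TATAAA there and below within 50 bp. With 10 windows these counts are too small to read a difference from. The added words GTGTGAA and TATCGA were not run at 100 bp.

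With 27 genes, 1 group and 2 replicates, no difference from other genes was tested. Whole embryos were pooled, so a peak in a few tissues and a weak peak in all cannot be told apart. Signals were lower in single-replicate lists, whose scaling is not stated; the cause was not tested.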
